A study of Mus musculus with 9 samples.

Results

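The 9 genes described here, *Rara*, *Rarb*, *Rarg*, *Cyp26a1*, *Crabp1*, *Crabp2*, *Aldh1a2*, *Dhrs3*, and *Stra6*, encode receptors, carriers, and enzymes of the retinoic acid pathway. They were taken by symbol from the 25239 gene symbols counted in each library, and all 9 were found. RNA-seq was performed on E14 mouse embryonic stem cells (ESCs, strain label 12910la) with unmutated *Rbbp4* (labelled Rbbp4+/+, the control) and on 2 mutant lines, labelled Rbbp4Ins/Ins and Rbbp4Ins/Del, with 3 libraries per line and 9 in all. *Rbbp4* encodes a histone-binding subunit shared by Polycomb repressive complex 2 and histone deacetylase complexes. Rbbp4Ins/Ins carries an insertion of 3 nucleotides on both alleles, and in Rbbp4Ins/Del one allele has the same insertion and the other a short in-frame deletion. Each mutant line is a single clone that grew out after transfection with Cas9, a guide, and a puromycin resistance plasmid, so a difference between the clones and the effect of the *Rbbp4* alleles cannot be told apart. All lines were grown in serum with leukemia inhibitory factor, and no retinoid treatment is named in the labels or the methods.

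Retinoic acid is a vitamin A derivative that patterns the embryo and drives ESCs out of pluripotency. Retinol can enter cells through STRA6, and dehydrogenases oxidize it first to retinaldehyde and then to retinoic acid. CRABP proteins carry the acid inside the cell, and CYP26 enzymes degrade it. Retinoic acid binds the receptors RARα, RARβ, and RARγ, which pair with RXR receptors on DNA repeats and switch from repression to activation when the ligand is bound. *Rarb*, *Cyp26a1*, and *Dhrs3* are well-known direct targets, and the products of *Cyp26a1* and *Dhrs3* act as brakes on the pathway.

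Library totals lay between 15838064 and 21366868 counted reads. The mutated gene *Rbbp4* had a mean of 10004 normalized counts in the control, 5604 in Rbbp4Ins/Ins, and 10358 in Rbbp4Ins/Del. Gene counts do not show the alleles themselves. The cells carried the RNA of pluripotent cells, since the summed normalized counts of 10 pluripotency markers lay between 86284 and 91227 in the control libraries, between 115286 and 116950 in Rbbp4Ins/Ins, and between 112694 and 116010 in Rbbp4Ins/Del. Sums of markers of differentiated cells were lower in the mutants. The 10 neural progenitor markers summed to between 2589 and 2599 in the control and to between 410 and 475 in the mutant libraries, with *Neurog2* and *Olig2* at 3 reads or fewer in every library. The 12 mesoderm and fibroblast markers summed to between 652 and 759 in the control and to between 279 and 393 in the mutants, with *Mesp1* and *Lum* at 3 reads or fewer in every library. This sum mixes directions, since *Thy1* rose from a mean of 45.7 normalized counts to 246 in Rbbp4Ins/Ins and 312 in Rbbp4Ins/Del and made up most of the mutant sums, while *T*, *Col1a1*, *Col1a2*, and *Col3a1* fell in both lines, *Col1a1* from 287 to 17.0 and 24.4. The 11 primitive endoderm markers, of which none was that low in every library of a line, summed to between 6474 and 7060 in the control, 4411 and 4516 in Rbbp4Ins/Ins, and 6279 and 6364 in Rbbp4Ins/Del. This sum also mixes directions by edgeR's test, with a limit of 0.01 on the adjusted p-value. In Rbbp4Ins/Ins 1 marker was higher and 5 lower of 10 tested, where 29.0% of all tested genes were higher and 29.4% lower. In Rbbp4Ins/Del 6 were higher and 4 lower, where 30.6% and 31.9% of all tested genes were. *Sparc* alone fell from a mean of 3207 normalized counts to 1369 and 1996. The part of these markers in the results below was not tested, and in bulk RNA fewer cells of one kind and less RNA per cell cannot be told apart.

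In both mutant lines, the receptors *Rarg* and *Rara* and the carrier *Crabp1* were higher than in the control, and *Dhrs3* and *Cyp26a1*, the enzymes that limit retinoic acid, were lower. *Rarg* rose 1.44-fold in Rbbp4Ins/Ins and 1.80-fold in Rbbp4Ins/Del, *Dhrs3* fell by 72.1% and 65.0%, and *Cyp26a1* fell by 61.0% and 72.7%. In Rbbp4Ins/Ins, 5 of the 9 genes had an adjusted p-value of 0.01 or less, the limit in the study's methods, 3 higher and 2 lower, where 58.4% of all 14125 tested genes passed. In Rbbp4Ins/Del, 7 of the 9 passed, 5 higher and 2 lower, where 62.5% of all tested genes passed. A count of 5 or 7 among 9 genes is thus near the share of all genes. By direction, 29.0% of all tested genes were higher and 29.4% lower in Rbbp4Ins/Ins, and 30.6% were higher and 31.9% lower in Rbbp4Ins/Del. The tests were edgeR's quasi-likelihood tests with Benjamini-Hochberg adjustment over all tested genes, and both mutant lines were compared with the same 3 control libraries. All 9 genes passed the filter on low counts, *Rarb* and *Cyp26a1* through the 3 control libraries and 1 Rbbp4Ins/Ins library, and *Stra6* through 2 control libraries and 1 library of each mutant. A normalized count is a read count scaled to the mean effective size of the 9 libraries. The genes *Rara*, *Rarg*, *Crabp1*, *Cyp26a1*, and *Dhrs3* were called in the same direction in both mutants, 5 of the 9, where 52.3% of all tested genes were, 25.6% higher and 26.7% lower.

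**Figure D1:**
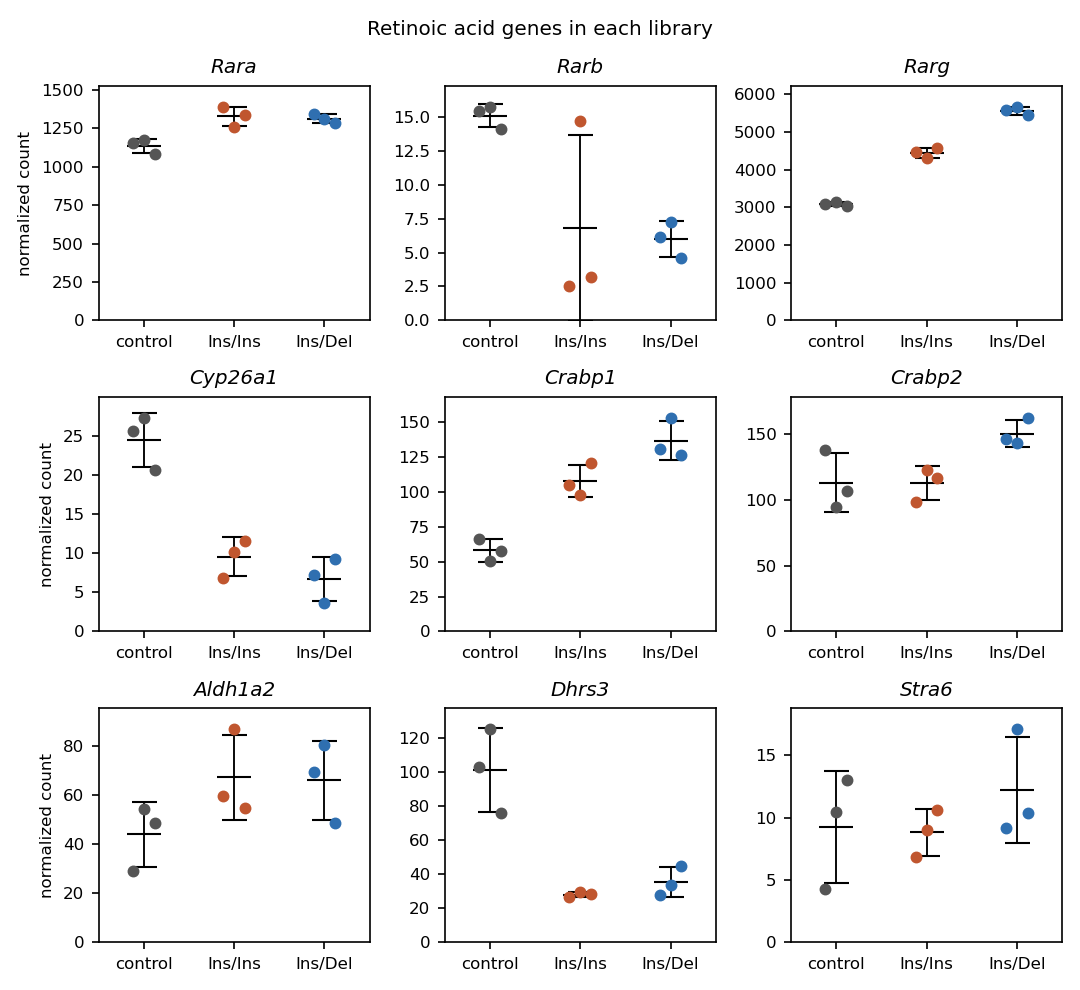
Normalized counts (vertical axes, from 0, with a scale for each gene) of the 9 retinoic acid genes in the 3 libraries of the control, Rbbp4Ins/Ins, and Rbbp4Ins/Del. Points are libraries, and bars are the mean and SD of 3 libraries. *Rarg* forms 3 separate steps from 3086 to 4442 to 5558, *Dhrs3* and *Cyp26a1* drop in every mutant library, and a single Rbbp4Ins/Ins library keeps *Rarb* at 14.7.

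RARγ is a nuclear receptor that activates genes when retinoic acid is bound. *Rarg* (ENSMUSG00000001288.15, chromosome 15, 102234938 to 102257517, minus strand of mm10) stood at 3080, 3142, and 3036 normalized counts in the control, 4466, 4302, and 4560 in Rbbp4Ins/Ins, and 5575, 5650, and 5447 in Rbbp4Ins/Del. The 3 lines did not overlap, with the control lowest and Rbbp4Ins/Del highest. Its log2 fold change was 0.53 in Rbbp4Ins/Ins (standard error 0.032, edgeR adjusted p = 1.4e-17) and 0.85 in Rbbp4Ins/Del (standard error 0.031, edgeR adjusted p = 1.5e-24). The libraries of the mutant and the control did not overlap in 69.1% of all tested genes for Rbbp4Ins/Ins and in 72.8% for Rbbp4Ins/Del, so separation alone was common.

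*Rara* (ENSMUSG00000037992.16, chromosome 11, 98927818 to 98974942, plus strand) encodes RARα, which is expressed in most tissues. The control libraries had 1154, 1175, and 1087 normalized counts of it, with 1388, 1262, and 1335 in Rbbp4Ins/Ins and 1347, 1312, and 1284 in Rbbp4Ins/Del. Every mutant library lay above every control library, and the mutant lines overlapped. The mean was 16.6% higher in Rbbp4Ins/Ins (log2 fold change 0.22, standard error 0.045, edgeR adjusted p = 4.5e-05) and 15.4% higher in Rbbp4Ins/Del (0.21, standard error 0.046, edgeR adjusted p = 0.00013).

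*Rarb* (ENSMUSG00000017491.9, chromosome 14, 16430839 to 16819156, minus strand) encodes RARβ, whose gene is itself induced by retinoic acid. It was near the limit of detection, with 18, 15, and 13 reads in the control libraries, 3, 13, and 3 in Rbbp4Ins/Ins, and 6, 8, and 4 in Rbbp4Ins/Del. Normalized, these were 15.4, 15.7, and 14.1 counts in the control, 2.57, 14.7, and 3.17 in Rbbp4Ins/Ins, and 6.13, 7.22, and 4.63 in Rbbp4Ins/Del. All Rbbp4Ins/Del libraries and 2 of the Rbbp4Ins/Ins libraries were below the control, and Rbbp4Ins/Ins replicate 2 was within the control range. Its log2 fold change was -1.23 in Rbbp4Ins/Ins (95% interval -2.11 to -0.34, edgeR adjusted p = 0.016) and -1.29 in Rbbp4Ins/Del (-2.19 to -0.39, edgeR adjusted p = 0.0119), and neither passed the limit of 0.01. Without Rbbp4Ins/Ins replicate 2, the log2 fold change was -2.36 in Rbbp4Ins/Ins (edgeR adjusted p = 0.00037) and -1.29 in Rbbp4Ins/Del (edgeR adjusted p = 0.00648), and both passed. In Rbbp4Ins/Ins it was -0.76 without replicate 1 (edgeR adjusted p = 0.163) and -0.93 without replicate 3 (edgeR adjusted p = 0.0932). DESeq2 gave adjusted p-values of 0.0922 in Rbbp4Ins/Ins and 0.0657 in Rbbp4Ins/Del. Exons of *Top2b* on the opposite strand cover 34.06% of the exonic length of *Rarb*, and the strand setting of the counting is not given in the sources used here. *Top2b* itself was lower in the mutants, with means of 2640 normalized counts in the control, 1621 in Rbbp4Ins/Ins, and 1494 in Rbbp4Ins/Del, and its part in the counts of *Rarb* was not tested.

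*Cyp26a1* (ENSMUSG00000024987.6, chromosome 19, 37697798 to 37701536, plus strand) encodes the main retinoic acid hydroxylase of the early embryo. It had 30, 26, and 19 reads in the control libraries, 8, 9, and 11 in Rbbp4Ins/Ins, and 7, 4, and 8 in Rbbp4Ins/Del. Normalized, these were 25.6, 27.2, and 20.6 counts, 6.84, 10.2, and 11.6 counts, and 7.16, 3.61, and 9.26 counts. Every mutant library was below every control library, and the mutant lines overlapped. On the log2 scale the change was -1.38 in Rbbp4Ins/Ins (standard error 0.34, edgeR adjusted p = 0.00051) and -1.91 in Rbbp4Ins/Del (standard error 0.37, edgeR adjusted p = 2e-05). With so few reads the sizes were imprecise, with 95% intervals from -2.05 to -0.72 and from -2.63 to -1.18.

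The start regions of *Rarb* and *Cyp26a1* are shown because each holds the kind of DNA repeat that RAR and RXR pairs bind, and because their mean counts were lower in both mutants. Promoter sequences were taken from RefSeq on GRCm38.p6, whose coordinates are those of mm10, and 8 of the 9 genes had an entry, with *Crabp2* the exception. In the 250 bases before each RefSeq start, direct repeats made of the hexamer AGGTCA, the hexamer GGGTCA, the hexamer AGTTCA, or the hexamer GGTTCA, with 1, 2, or 5 bases between hexamers, were searched on both strands. Only *Rarb* and *Cyp26a1* had one, in each case with 5 bases between the hexamers. In the sequences below, capitals mark the hexamers. The *Rarb* stretch is chr14:16575507-16575535, minus strand, and its repeat lies 53 to 37 bases before the RefSeq start, inside exon 1 and the 5′ untranslated region of the GENCODE transcripts Rarb-201 and Rarb-207. The *Cyp26a1* stretch is chr19:37697558-37697797, plus strand, upstream of the first GENCODE exon, and its repeat lies 32 to 16 bases before the RefSeq start on the opposite strand, where it reads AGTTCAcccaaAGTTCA.
Rarb: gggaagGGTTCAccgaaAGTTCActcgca
Cyp26a1: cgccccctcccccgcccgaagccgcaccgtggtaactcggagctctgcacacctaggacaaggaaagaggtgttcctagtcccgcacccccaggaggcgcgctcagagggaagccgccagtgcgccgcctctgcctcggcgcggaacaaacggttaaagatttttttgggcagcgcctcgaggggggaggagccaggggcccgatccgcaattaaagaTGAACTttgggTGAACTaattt
Both repeats end in the hexamer AGTTCA when read in the direction of the repeat. Of all 32851 promoter windows of this length in the table, 0.0883% held a repeat with 5 bases between hexamers and 0.426% held one with any of the 3 spacings, whereas 38.6% held at least 1 single hexamer. Of 28 genes with the spacing of 5, 13 were among the counted symbols and 5 had enough counts for a test. Besides *Rarb* and *Cyp26a1* these were *Blvrb*, *Cfap45*, and *Syndig1*. The latter were all higher in Rbbp4Ins/Ins, where 29.0% of all tested genes were higher. Of them only *Syndig1* was higher in Rbbp4Ins/Del, where 30.6% of all tested genes were higher. Genes with this spacing were listed after their values were seen. A match in sequence is a description and does not show binding.

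*Dhrs3* (ENSMUSG00000066026.14, chromosome 4, 144892827 to 144928209, plus strand) encodes a short-chain reductase that turns retinaldehyde back into retinol and so lowers the supply of retinoic acid. The control libraries had 103, 125, and 75.8 normalized counts of it, with 26.5, 29.3, and 28.5 in Rbbp4Ins/Ins and 27.6, 33.4, and 45.1 in Rbbp4Ins/Del. All 6 mutant libraries were below the lowest control library, and the spread was wider among the controls than among the Rbbp4Ins/Ins libraries. The fitted log2 change was -1.85 in Rbbp4Ins/Ins (standard error 0.20, edgeR adjusted p = 1.9e-10) and -1.53 in Rbbp4Ins/Del (standard error 0.19, edgeR adjusted p = 5.3e-09). *Dhrs3* and *Cyp26a1* were the only members past 2-fold and the adjusted p-value limit in both lines. By these limits 8.96% of all tested genes were lower in Rbbp4Ins/Ins and 10.2% in Rbbp4Ins/Del. These shares are for each line, and the share lower by these limits in both lines together is not reported here. *Cyp26a1* passed the filter on low counts mainly through the control, where it was highest, so the filter favored a fall.

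*Crabp1* (ENSMUSG00000032291.8, chromosome 9, 54764748 to 54773110, plus strand) encodes the cytosolic carrier that is linked to the breakdown of retinoic acid. Normalized counts were 66.7, 50.3, and 57.4 in the control, 105, 98.2, and 121 in Rbbp4Ins/Ins, and 131, 153, and 127 in Rbbp4Ins/Del. The 3 lines did not overlap, in the same order as for *Rarg*. The fit gave a log2 fold change of 0.88 in Rbbp4Ins/Ins (standard error 0.15, edgeR adjusted p = 2.6e-06) and 1.23 in Rbbp4Ins/Del (standard error 0.14, edgeR adjusted p = 8.7e-10). The 2.36-fold rise in Rbbp4Ins/Del passed both the limit and 2-fold, as did 8.45% of all tested genes in this direction.

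*Crabp2* (ENSMUSG00000004885.5, chromosome 3, 87948666 to 87953376, plus strand) encodes the related carrier that delivers retinoic acid to the receptors in the nucleus. Normalized counts were 138, 94.3, and 107 in the control, 98.4, 123, and 117 in Rbbp4Ins/Ins, and 146, 143, and 162 in Rbbp4Ins/Del. The Rbbp4Ins/Ins libraries overlapped the control, and the Rbbp4Ins/Del libraries were above all others. Its log2 fold change was -0.03 in Rbbp4Ins/Ins (95% interval -0.29 to 0.23, edgeR adjusted p = 0.851) and 0.39 in Rbbp4Ins/Del (0.14 to 0.64, edgeR adjusted p = 0.00691). The latter call was lost in DESeq2 (adjusted p = 0.0292) and when Rbbp4Ins/Del replicate 1 or 3 or control replicate 2 or 3 was left out, with edgeR adjusted p-values of 0.0136, 0.0332, 0.0566, and 0.0231.

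*Aldh1a2* (ENSMUSG00000013584.5, chromosome 9, 71215789 to 71296243, plus strand) encodes the dehydrogenase that makes most retinoic acid in the early embryo. Normalized counts were 29.1, 54.5, and 48.7 in the control, 59.9, 86.9, and 55.0 in Rbbp4Ins/Ins, and 69.5, 80.3, and 48.6 in Rbbp4Ins/Del. The Rbbp4Ins/Ins libraries were above the control by a narrow margin, and Rbbp4Ins/Del replicate 3 lay within the control range. On the log2 scale the change was 0.62 in Rbbp4Ins/Ins (95% interval 0.20 to 1.04, edgeR adjusted p = 0.0102) and 0.64 in Rbbp4Ins/Del (0.22 to 1.05, edgeR adjusted p = 0.00821). The estimates were alike and fell on opposite sides of the limit of 0.01, so no difference between the lines is shown. In Rbbp4Ins/Del the call was lost in DESeq2 (adjusted p = 0.0417), with total counts as scaling (edgeR adjusted p = 0.0107), and without Rbbp4Ins/Del replicate 1 or 2 or control replicate 1, with edgeR adjusted p-values of 0.0282, 0.0912, and 0.121. In Rbbp4Ins/Ins it was gained without any one of 6 libraries, with edgeR adjusted p-values from 0.00293 to 0.00949. These were Rbbp4Ins/Ins replicates 1 and 3, Rbbp4Ins/Del replicates 2 and 3, and control replicates 2 and 3. Without Rbbp4Ins/Ins replicate 2 the log2 fold change was 0.42 (edgeR adjusted p = 0.113), without control replicate 1 it was 0.37 (edgeR adjusted p = 0.14), and in DESeq2 the adjusted p-value was 0.0427.

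*Stra6* (ENSMUSG00000032327.14, chromosome 9, 58063788 to 58153996, plus strand) encodes the membrane receptor that takes up retinol from its plasma carrier. It had 5, 10, and 12 reads in the control libraries, 8, 8, and 10 in Rbbp4Ins/Ins, and 9, 19, and 9 in Rbbp4Ins/Del, and all lines overlapped. The fitted log2 change was -0.04 in Rbbp4Ins/Ins (95% interval -0.92 to 0.85, edgeR adjusted p = 0.95) and 0.48 in Rbbp4Ins/Del (-0.34 to 1.31, edgeR adjusted p = 0.302). With so few reads, changes within these intervals were not detectable at this depth.

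**Figure D2:**
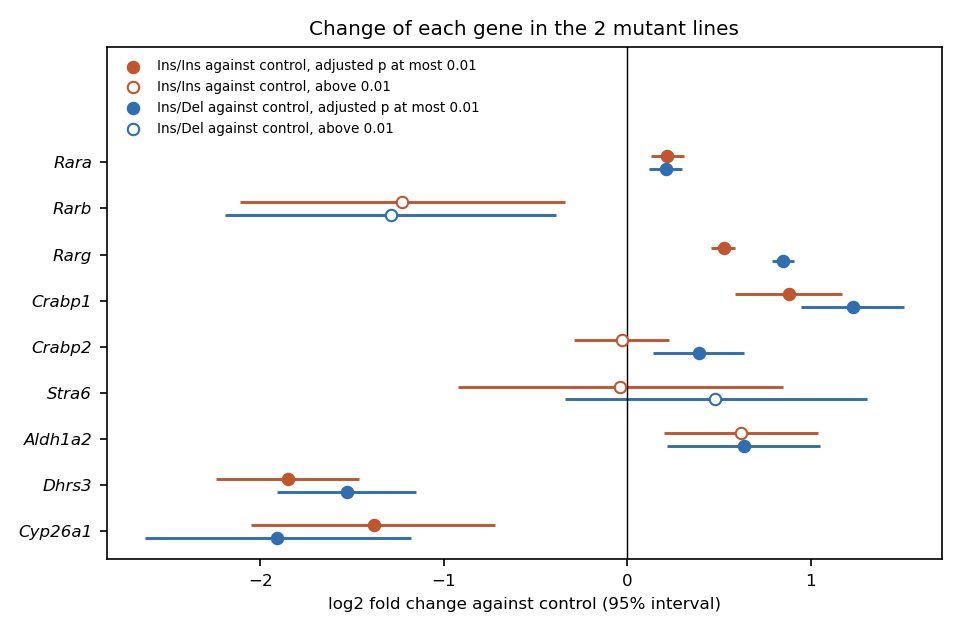
Log2 fold change against the control (horizontal axis) of each of the 9 genes in Rbbp4Ins/Ins and Rbbp4Ins/Del, from edgeR's fit of 9 libraries, with bars for the 95% interval. Filled points have an adjusted p-value of at most 0.01 and open points do not. *Dhrs3* and *Cyp26a1* lie left of 0 in both lines, *Rara*, *Rarg*, and *Crabp1* lie right of 0, and the intervals of *Stra6* include 0.

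To compare levels between genes, counts were divided by exonic length and library size, giving RPKM (here counts per kb of exon, scaled to a common library size). On this scale *Rarg* was the highest of the 9 genes in the control, at 39.7 ± 0.691 (SD, n = 3), followed by *Rara* at 14.3 ± 0.579. *Crabp2* at 4.69 ± 0.923 and *Crabp1* at 3.97 ± 0.562 overlapped in the control libraries. *Dhrs3* followed at 1.89 ± 0.458, then *Aldh1a2* at 1.07 ± 0.322 and *Cyp26a1* at 0.677 ± 0.0962, which overlapped each other, then *Rarb* at 0.157 ± 0.00903 and *Stra6* at 0.0869 ± 0.0422.

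The order changed in the mutants at 3 places. *Crabp1* stood above *Crabp2* with no overlap, at 7.38 ± 0.78 against 4.68 ± 0.535 (SD, n = 3) in Rbbp4Ins/Ins and at 9.37 ± 0.968 against 6.23 ± 0.428 in Rbbp4Ins/Del. *Aldh1a2* stood above *Dhrs3* with no overlap, at 1.63 ± 0.416 against 0.527 ± 0.0273 (SD, n = 3) in Rbbp4Ins/Ins and at 1.60 ± 0.39 against 0.662 ± 0.167 in Rbbp4Ins/Del. *Rarb* became the lowest, at 0.0708 ± 0.071 (SD, n = 3) in Rbbp4Ins/Ins, where it overlapped *Stra6*, and at 0.0624 ± 0.0135 in Rbbp4Ins/Del, where it did not.

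Of the summed level per exonic length of the 3 receptors, *Rarg* made up 73.3% ± 0.506 (SD, n = 3) in the control, 77.3% ± 0.562 in Rbbp4Ins/Ins, and 81.2% ± 0.304 in Rbbp4Ins/Del. *Rara* made up 26.4% ± 0.496, 22.6% ± 0.61, and 18.7% ± 0.308 (SD, n = 3), and *Rarb* made up the small remainder, at 0.289% ± 0.0105, 0.0978% ± 0.101, and 0.0707% ± 0.0142. The ratio of *Rarg* to *Rara* per length was 2.78 ± 0.0721 in the control, 3.43 ± 0.116 in Rbbp4Ins/Ins, and 4.33 ± 0.0871 in Rbbp4Ins/Del (SD, n = 3), and the 3 lines did not overlap. The ratio of *Crabp1* to *Crabp2* per length was 0.853 ± 0.0475, 1.59 ± 0.241, and 1.51 ± 0.242 (SD, n = 3), with both mutants above the control and overlapping each other.

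**Figure D3:**
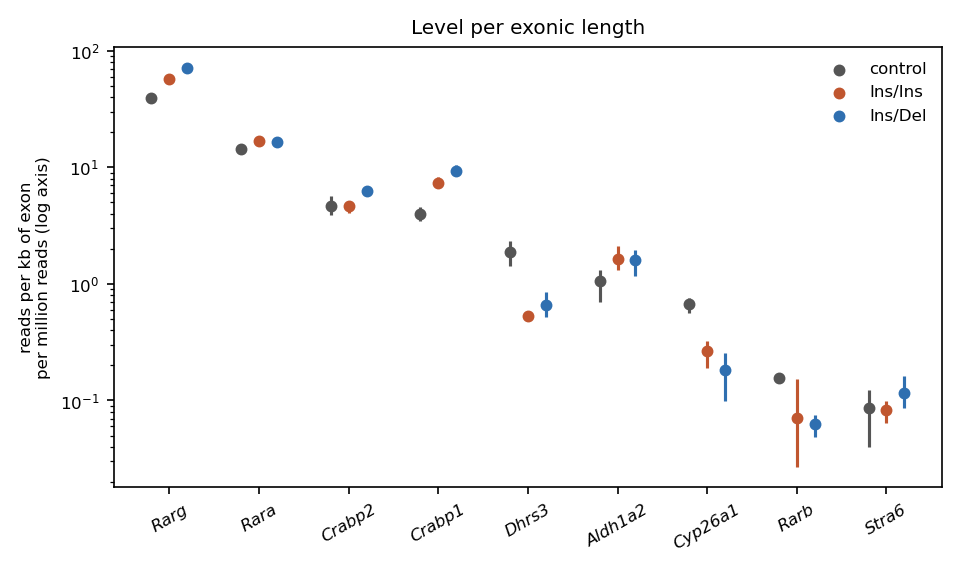
RPKM, the level per exonic length (vertical log axis), of the 9 genes in the control, Rbbp4Ins/Ins, and Rbbp4Ins/Del. Points are means of 3 libraries and bars run from the lowest to the highest library. *Rarg* and *Rara* stand above all other members in every line, and *Dhrs3* passes from above *Aldh1a2* in the control to below it in both mutants.

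The mutant lines, each a single clone, were then compared with each other. Of the 9 genes only *Rarg* differed, where 10.8% of all tested genes did (6.17% higher and 4.64% lower in Rbbp4Ins/Del), and it was 1.25-fold higher in Rbbp4Ins/Del (log2 difference 0.32, standard error 0.031, edgeR adjusted p = 2.6e-10). *Crabp1* and *Crabp2* were also higher in every Rbbp4Ins/Del library than in every Rbbp4Ins/Ins library, and the libraries of the mutant lines did not overlap in 34.1% of all tested genes. Their log2 differences of 0.35 (95% interval 0.10 to 0.60, edgeR adjusted p = 0.0475) and 0.42 (0.17 to 0.67, edgeR adjusted p = 0.0178) did not pass the limit of 0.01. For *Rara* the log2 difference was -0.02 with an interval from -0.11 to 0.07. The intervals were wide for *Dhrs3* (-0.17 to 0.80), *Cyp26a1* (-1.42 to 0.37), *Aldh1a2* (-0.37 to 0.40), *Stra6* (-0.31 to 1.35), and *Rarb* (-1.15 to 1.03), so a moderate difference between the lines would not have been seen. Without Rbbp4Ins/Ins replicate 2 the log2 difference of *Rarb* was 1.07 (edgeR adjusted p = 0.31).

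Other genes of the pathway were read from 3 lists, whose calls are again from edgeR's test across all genes. Of 32 genes that transport, make, or break down retinoids, 17 had enough counts for a test. In Rbbp4Ins/Ins 6 were higher and 7 lower, with a median log2 fold change of 0.08, and in Rbbp4Ins/Del 7 were higher and 6 lower, with a median of 0.11, where the median over all tested genes was 0.00 and -0.01. The share called was 76.5% in each line, against 58.4% and 62.5% of all tested genes. Of these, *Aldh1a3* passed the filter on low counts mainly through the control libraries, and *Rbp4*, *Adh1*, *Adh4*, and *Adh7* mainly through the mutant libraries.

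*Rdh10*, which encodes the retinol dehydrogenase that carries out the opening step of retinoic acid synthesis in the embryo, fell from 214 ± 16.6 normalized counts (SD, n = 3) in the control to 81.3 ± 4.8 in Rbbp4Ins/Ins and 99.5 ± 5.31 in Rbbp4Ins/Del. *Aldh1a3*, a paralog of *Aldh1a2*, fell from 25.5 ± 4.73 (SD, n = 3) to 6.10 ± 2.96 and 5.04 ± 3.66, opposite in sign to *Aldh1a2*. The edgeR adjusted p-values of *Rdh10* and *Aldh1a3* lay between 1.3e-13 for *Rdh10* in Rbbp4Ins/Ins and 1.3e-05 for *Aldh1a3* in the same line.

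In the other direction, *Adh1*, an alcohol dehydrogenase that also oxidizes retinol, rose from 5.20 ± 0.917 normalized counts (SD, n = 3) in the control to 60.0 ± 4.45 in Rbbp4Ins/Ins and 47.1 ± 4.49 in Rbbp4Ins/Del, with 4 to 7 reads in each control library. *Rdh1*, a retinol dehydrogenase, rose from 26.9 ± 0.762 (SD, n = 3) to 84.3 ± 24.2 and 102 ± 21.7, and 11.81% of its exonic length overlaps *Rdh16f1* on the same strand. *Rbp7*, a cellular retinol-binding protein, rose from 14.7 ± 0.659 (SD, n = 3) to 45.9 ± 11.2 and 43.2 ± 4.30. *Rbp4*, the plasma carrier of retinol, had 7.26 ± 1.24, 16.2 ± 5.92, and 25.1 ± 8.22 normalized counts (SD, n = 3), and it passed the limit in Rbbp4Ins/Del (edgeR adjusted p = 9.2e-05) and not in Rbbp4Ins/Ins (edgeR adjusted p = 0.0171). *Aldh1a1*, *Cyp26b1*, *Cyp26c1*, and *Lrat* had at most 10 reads in any library and were not tested.

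The second list held 18 RXR partners and coregulators, all of them tested, of which *Rxrg* passed the filter mainly through the control. In Rbbp4Ins/Ins 2 were higher and 6 lower (median log2 fold change -0.05), and in Rbbp4Ins/Del 4 were higher and 8 lower (median -0.11). The share called was 44.4% and 66.7%, against 58.4% and 62.5% of all tested genes. The RXR genes, which encode the dimer partners of the RARs, moved in different directions. *Rxra* rose from 409 ± 8.83 normalized counts (SD, n = 3) to 595 ± 11.6 in Rbbp4Ins/Ins and 569 ± 25 in Rbbp4Ins/Del. *Rxrb* fell from 973 ± 71 (SD, n = 3) to 863 ± 49.4 and 714 ± 15.3, and *Rxrg* fell from 23.4 ± 2.47 to 9.96 ± 3.88 and 8.30 ± 2.05. *Rxrb* was lower in Rbbp4Ins/Del than in Rbbp4Ins/Ins (log2 difference -0.28, edgeR adjusted p = 0.00043).

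The third list held 30 genes that retinoic acid induces in ESCs or the early embryo, of which 17 were tested, *Hoxa5* and *Cdx1* mainly through the control libraries. In each mutant line 12 were lower and 2 higher, the same genes in both, with a median log2 fold change of -1.41 in Rbbp4Ins/Ins and -1.61 in Rbbp4Ins/Del. The share called was 82.4% in each line, against 58.4% and 62.5% of all tested genes. With every gene of at least 1 read kept, all 30 were tested, and 14 were lower and 2 higher in Rbbp4Ins/Ins and 15 lower and 2 higher in Rbbp4Ins/Del. In that fit the share of the list called was 53.3% and 56.7%, and the share of all genes called is not reported here. This list was written with results of these data known, so its counts describe the list and support no direction.

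Among its transcription factors, *Meis2*, a homeobox cofactor of HOX proteins, fell from 230 ± 2.66 normalized counts (SD, n = 3) to 22.4 ± 6.26 in Rbbp4Ins/Ins and 39.5 ± 14.2 in Rbbp4Ins/Del. Its paralog *Meis1* had 99.6 ± 7.42 (SD, n = 3), 20.5 ± 5.73, and 15.9 ± 5.74, and the zinc finger gene *Tshz1* had 50.3 ± 8.15, 10.6 ± 3.30, and 9.64 ± 2.84. All mutant libraries of these 3 genes were below the control libraries, with edgeR adjusted p-values of at most 6.2e-09.

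*Stra8* and *Ret* were the genes of this list that rose. *Stra8*, the gene through which retinoic acid starts meiosis in germ cells, rose from 96.5 ± 12.4 normalized counts (SD, n = 3) in the control to 425 ± 7.84 in Rbbp4Ins/Ins and 452 ± 38.1 in Rbbp4Ins/Del (edgeR adjusted p = 1.1e-21 and 1.8e-22). *Ret*, a receptor tyrosine kinase of kidney and neural crest development, rose from 50.8 ± 3.30 (SD, n = 3) to 119 ± 19.3 and 127 ± 15.2 (edgeR adjusted p = 5.2e-09 and 6.7e-10).

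**Figure D4:**
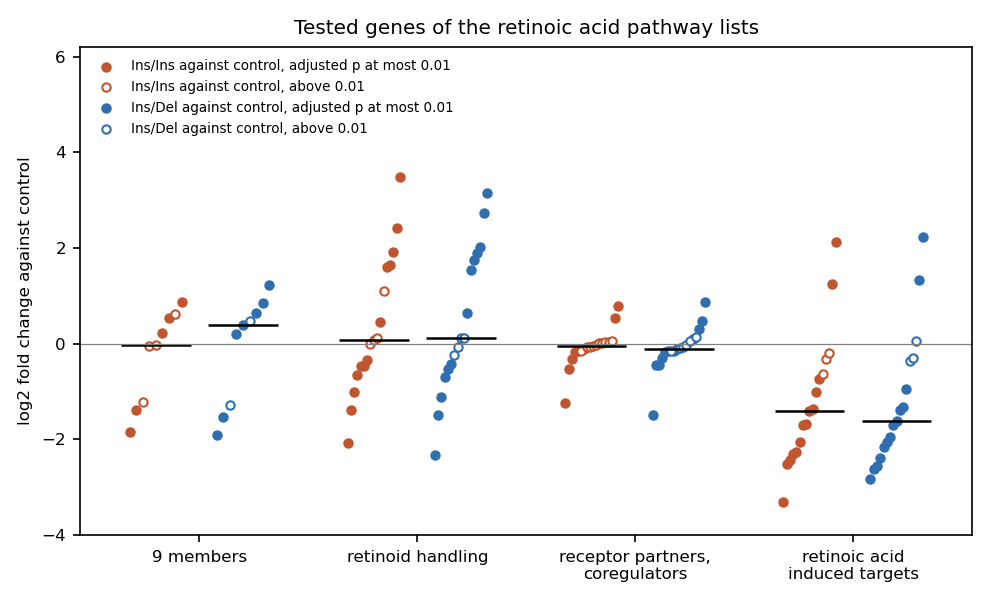
Log2 fold change against the control (vertical axis) of each tested gene of the 9 members and the 3 pathway lists, with Rbbp4Ins/Ins on the left and Rbbp4Ins/Del on the right of each list. Filled points have an edgeR adjusted p-value of at most 0.01, open points do not, and black lines are medians. The medians of the induced targets lie at -1.41 and -1.61, and those of the other lists lie between -0.11 and 0.39.

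The pattern over the 9 libraries was compared between *Dhrs3* or *Cyp26a1* and tested genes whose mean normalized count exceeded 20. Genes with provisional symbols (Gm with a number, or ending in Rik) were left out. Of the genes compared, the one most like *Cyp26a1* was *Cnr1* (Pearson r = 0.989). Those most like *Dhrs3* were *Ccdc14* (r = 0.992) and *Epcam* (r = 0.987). The points are 9 libraries from 3 lines, so libraries of one line are not independent, and the correlations are descriptions only. *Cnr1* went from a mean of 145 normalized counts in the control to 31.4 and 19.7 (log2 fold changes -2.22 and -2.92), a larger change than that of *Cyp26a1*, whereas *Ccdc14* and *Epcam* had log2 fold changes between -0.43 and -0.17 in both mutants.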

How the data were processed

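The authors isolated total RNA, prepared mRNA libraries, and read 50 bp from both ends of each fragment. Alignment to mm10 was done with STAR 2.7.3 and counting with HTSeq. What the authors deposited are raw whole-number counts for 25239 gene symbols in 9 libraries, without normalization. Numbers of reads in this text are these counts, and with both ends read a count may stand for a read pair. The HTSeq version, strand setting, and annotation are not given in the sources used here. Genes were filtered with filterByExpr (10 reads at the median library size, 0.575 CPM, in 3 libraries), which left 14125 genes. TMM factors (0.9926 to 1.016) came from edgeR 4.0.16 in R 4.3.3, which fitted all 9 libraries in one quasi-likelihood model with 3 groups, with p-values adjusted by the Benjamini-Hochberg method over all tested genes and a limit of 0.01. The standard error of a log2 fold change was its size over the square root of F, and 95% intervals are 1.96 standard errors wide on each side. Gene positions, exonic lengths, and overlaps are from GENCODE M21 (mm10), which matched 24323 symbols to a single gene.

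The 9 genes and the lists were chosen with earlier results of these data known. Named beside them were genes of the lists past the limit and 2-fold in each mutant whose mean normalized count exceeded 20 (at most 5 in each direction), the RXR genes, a set of retinoid genes named whatever their values (such as *Rdh10*, *Rbp4*, *Aldh1a3*, and *Lrat*), and the genes with the most similar patterns. Some genes that this rule names are not reported here. No 2 libraries of a line were copies by their counts (chi-square per gene between 1.90 and 4.83). Nothing states that they came from separate cultures, so p-values measure the spread between these libraries, which may be technical. The fit was tested on simulated data before use. Alternatives were DESeq2 1.42.0, other scalings, no filter, fits of 2 groups, a replicate block, each library left out, and a limit of 0.05.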

Additional observations from a re-analysis of the deposited data

Results flagged for a closer look

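For *Rarg* and *Rxrb* the change against the control differed between the mutant lines by the direct test of Rbbp4Ins/Del against Rbbp4Ins/Ins. The same test called 10.8% of all tested genes, and in the pathway lists also *Ncoa3*, *Nrip1*, *Gbx2*, *Lefty1*, and *Bhlhe40*. The log2 fold change of *Rarg* was 0.53 in Rbbp4Ins/Ins and 0.85 in Rbbp4Ins/Del, a difference of 0.32 (edgeR adjusted p = 2.6e-10). That of *Rxrb* was -0.17 in Rbbp4Ins/Ins and -0.45 in Rbbp4Ins/Del, a difference of -0.28 (edgeR adjusted p = 0.00043). In all 9 fits that left out a library, the difference of *Rarg* stayed between 0.30 and 0.34.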

How the results depend on the processing

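The test was repeated with DESeq2, DESeq2 size factors or total counts as scaling, every gene of at least 1 read, only the 2 lines compared, a replicate block, a limit of 0.05, and each library left out. Leaving aside the limit of 0.05, 402 values for single genes were computed, of which 365 kept their direction and side of the limit, 14 gained a call, 10 lost one, and 13 changed sign. *Rara*, *Rarg*, *Crabp1*, *Cyp26a1*, and *Dhrs3* kept their direction and call against the control in all of these, with *Cyp26a1* in Rbbp4Ins/Ins the closest to the limit (largest adjusted p = 0.00997). With 1 library left out, 5 to 6 of the 9 genes were called in Rbbp4Ins/Ins and 5 to 8 in Rbbp4Ins/Del. In Rbbp4Ins/Del DESeq2 called 5 and total counts as scaling 6. At the limit of 0.05, 7 were called in Rbbp4Ins/Ins and 8 in Rbbp4Ins/Del. In the main fit at the limit of 0.01, 58.4% and 62.5% of all tested genes were called. The shares of all genes called at the other settings are not reported here, so these counts show only how the calls moved. Between the mutants, 1 gene was called, against 3 at a limit of 0.05, 2 with every gene of at least 1 read, and 2 with only the 2 lines compared, where *Crabp2* was the gene added in the latter 2 settings.

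Replicate numbers did not pair the libraries, since the correlations of same-numbered libraries lay between -0.028 and 0.056 over 9 pairs. With the replicate number as a block, 6 of the 9 genes were called in Rbbp4Ins/Ins and 8 in Rbbp4Ins/Del. The pathway lists, with 52 genes tested, had 35 and 39 calls. The share of all tested genes called with the block is not reported here. The added genes were *Aldh1a2* in Rbbp4Ins/Ins (edgeR adjusted p = 0.00433) and *Rarb* in Rbbp4Ins/Del (edgeR adjusted p = 0.00812).

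No value that changed sign was a call, and the cause was not tested. In Rbbp4Ins/Ins against the control, leaving out a library gave log2 fold changes of -0.13 to 0.15 for *Crabp2*, among them 0.08 without Rbbp4Ins/Ins replicate 1, and of -0.43 to 0.30 for *Stra6*, among them 0.15 and 0.10. Between the mutants it gave -0.05 to 0.02 for *Rara*, -0.51 to 1.07 for *Rarb*, among them 0.07 without Rbbp4Ins/Del replicate 3, and -0.16 to 0.22 for *Aldh1a2*, among them -0.01, -0.07, and -0.10. *Aldh1a2* was -0.02 with the replicate block. The counts limit *Rarb*, *Cyp26a1*, and *Stra6*, with at most 30 reads in any library.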

Other observations

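The pluripotency markers that were summed above did not all move one way. In Rbbp4Ins/Ins 8 of the 10 were higher than in the control and 2 lower, the latter being *Pou5f1* and *Utf1*, with a median log2 fold change of 0.49. In Rbbp4Ins/Del 7 were higher and 1 lower (*Utf1*), with a median of 0.51. Of all tested genes, 29.0% were higher and 29.4% lower in Rbbp4Ins/Ins, and 30.6% were higher and 31.9% lower in Rbbp4Ins/Del. Of the primitive endoderm markers, 10 were tested, with 1 higher and 5 lower in Rbbp4Ins/Ins and 6 higher and 4 lower in Rbbp4Ins/Del. Between the mutants, 6 of these 10 were higher in Rbbp4Ins/Del and the other 4 did not pass edgeR's limit of 0.01, where 6.17% of all tested genes were higher and 4.64% lower. Among the RXR partners and coregulators, the coactivator gene *Ncoa3* and the corepressor gene *Nrip1* were higher in Rbbp4Ins/Del than in Rbbp4Ins/Ins, and *Rxrb* was lower. The share of this list called between the mutants was 16.7%, against 10.8% of all tested genes. Against the control, *Ncoa3* was called only in Rbbp4Ins/Del (edgeR adjusted p = 2.5e-12). *Nrip1* was called in neither line (edgeR adjusted p = 0.0612 in Rbbp4Ins/Ins and 0.0916 in Rbbp4Ins/Del). Genes were named here after their values were seen.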
